A study of Mus musculus with 8 samples.

Results

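Needling at the acupoints GB34 and LR3 of MPTP-treated mice was compared with MPTP treatment alone in the cervical spinal cord, on 4 of the 8 arrays of the study. Every gene with a probe set of a single gene symbol was a member, represented by its brightest probe set. Such probe sets gave 19938 genes, of which 16026 had a mean signal above the filter on low values and were tested. All mice were male C57BL/6, 6 weeks old. The acupoint group received daily MPTP for 4 weeks (20 mg/kg, 24 h apart) and 14 sessions of hand needling, 48 h apart and 2 h after an injection, on both sides at GB34 (3 mm deep) and LR3 (1 mm deep), with the needles rotated for 15 s. The non-acupoint group received the same MPTP course and the same handling with needles 3 mm deep in both hips. The MPTP group received MPTP without needling, and the control group received saline. Each of the 4 groups had 2 arrays. The sample titles name the arrays of each group as mouse 1 and mouse 2. The protocol counts 9 mice in the MPTP group and 9 in the control group, and whether RNA of several mice was pooled is not stated. The p-values set each difference against the spread between arrays of the same group, pooled over the 4 groups, and part of that spread may be technical.

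MPTP is a toxin whose metabolite is taken up by dopaminergic neurons, where it blocks complex I of the mitochondrial respiratory chain, and it is used to model parkinsonism in mice. The dopaminergic cell bodies it is known to damage lie in the midbrain, outside the tissue measured here. GB34 and LR3 are on the lower leg and the foot, whose sensory nerves enter the lumbar cord, whereas the arrays hold cervical cord. The cervical cord contains motor neurons of the forelimb, dorsal horn neurons that receive touch and pain input, long ascending and descending tracts, glia and vessels. Immediate early genes such as Fos and Jun are transcription factors induced within a short time of neuronal activity or injury, and Sprr1a and Atf3 are known markers of axonal injury in sensory and motor neurons.

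No gene passed an adjusted p of 0.05 between acupoint needling and MPTP alone (limma, Benjamini-Hochberg over 16026 genes, 0% in each direction, smallest adjusted p of 1). At an unadjusted p under 0.05 there were 201 genes (1.25%), 102 at higher signal after acupoint needling (0.636%) and 99 at lower signal (0.618%). At an unadjusted p under 0.01 there were 12 genes (0.0749%), 6 in each direction (0.0374%). Both totals are smaller shares than the thresholds themselves, which are the shares expected if no gene differed. The median log2 difference over all genes was -0.01, and 99% of genes differed by less than 0.39. A typical gene had a standard error of 0.13 and an unadjusted 95% interval reaching 0.28 to each side, which is 1.22-fold. Smaller differences of such a gene could not be resolved by these arrays. Passing the adjustment over 16026 genes takes more than that, and Sgk1, at -0.58 (SE 0.10), did not pass. At least 1.5-fold differences were seen in 29 genes (0.181%), 18 higher and 11 lower. The acupoint and MPTP arrays did not overlap in 12 of the 29, against 24.3% of all genes, but the 29 were picked by the size of their difference. At least 2-fold differences were seen in 3 genes (0.0187%). In the same fit, MPTP minus control gave 2696 called genes (16.8%), but 0 with the mean of the muscle markers as a covariate and 69 without MPTP replicate 1. That mean was 5.74 and 5.68 on the MPTP arrays and 7.35 and 8.77 on the control arrays, so the covariate separates these groups too. With it the median standard error of this comparison was 0.22, against 0.13, and the median log2 difference over all genes 0.04, against 0.06. These medians do not show whether the differences of the called genes became smaller. The parts of the wider error and of muscle RNA in the lost calls were not tested. Non-acupoint needling minus MPTP gave 0 (273 genes, 1.7%, at an unadjusted p under 0.05) and acupoint minus non-acupoint needling gave 0 (604 genes at that level).

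The 2 acupoint arrays were further from each other than either was from either MPTP array. The standard deviation over genes of the log2 difference was 0.31 between the acupoint arrays, and 0.16 between the MPTP arrays. Acupoint replicate 2 lay 0.15 from MPTP replicate 1 and 0.18 from MPTP replicate 2, close to the distance within the MPTP group. Acupoint replicate 1 lay 0.28 and 0.24 from these arrays, and 0.26 from control replicate 1. The acupoint arrays were at least 2-fold apart in 115 genes, and the MPTP arrays in 29.

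The 10 genes with the largest gaps between the acupoint arrays included genes of connective tissue, peripheral nerve and muscle. Ogn, an extracellular matrix proteoglycan of the meninges, had a log2 signal of 9.03 and 4.66 on acupoint replicates 1 and 2, against 4.75 and 7.86 on MPTP replicates 1 and 2. Pmp2, a myelin protein of peripheral nerve, was at 7.07 and 3.95 with acupoint needling, against 3.81 and 6.40 with MPTP alone. Myh4, a fast skeletal muscle myosin, was at 7.27 and 4.41 with acupoint needling, against 5.14 and 5.19 with MPTP alone. Mfap5, Dcn and Lum (matrix), Cldn19 (peripheral myelin), Atp2a1 (the calcium pump of fast muscle), Fam178b and Sbspon were the other genes among the 10. In all 10 acupoint replicate 1 was the higher.

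Over whole marker lists the pattern was the same. The mean of 15 meninges and fibroblast markers was 8.01 and 6.30 with acupoint needling, against 6.39 and 7.49 with MPTP alone. The mean of 11 Schwann cell and nerve root markers was 7.64 and 6.35 with acupoint needling, against 6.47 and 7.10 with MPTP alone. The mean of 17 skeletal muscle markers was 6.84 and 5.53 with acupoint needling, against 5.74 and 5.68 with MPTP alone. The first 2 lists were thus high on 1 array of each group, and the muscle list on acupoint replicate 1 only. Markers of the cord itself were level, with a neuronal mean of 10.29 and 10.37, against 10.36 and 10.33, and an oligodendrocyte mean of 9.74 and 9.82, against 9.77 and 9.73, so the defining markers of spinal cord were present on all 4 arrays. With the muscle marker mean as a covariate, acupoint minus MPTP gave 0 called genes and 259 at an unadjusted p under 0.05 (limma). With the mean of the meninges and nerve root markers as a covariate it gave 0 and 309. The part of other tissue in the differences described below was not tested beyond these fits and the values without 1 array. In bulk RNA, fewer cells of a type and less RNA per cell cannot be told apart.

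**Figure D1:**
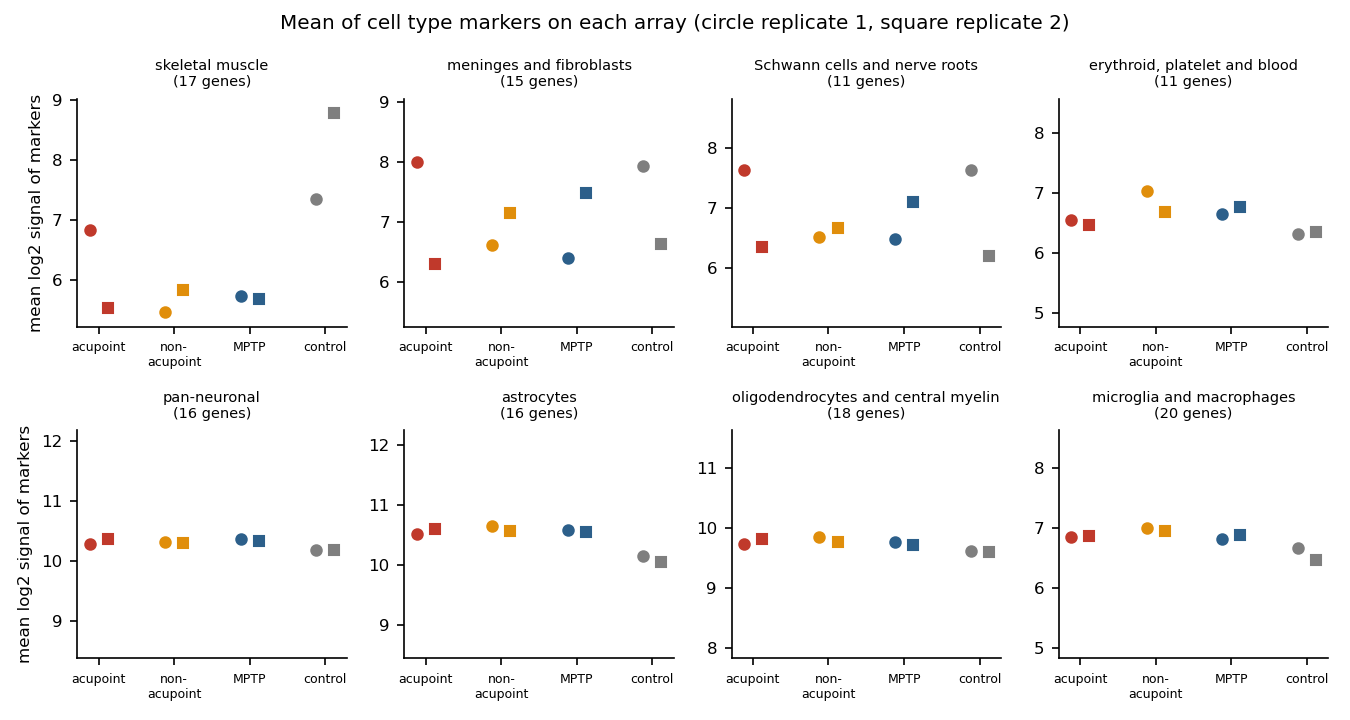
Mean log2 signal of 8 lists of cell type markers on each of the 8 arrays, with acupoint arrays at the left and control arrays at the right of each panel, circles for replicate 1 and squares for replicate 2. Acupoint replicate 1 is at 8.01 for meninges and 6.84 for muscle, above acupoint replicate 2 at 6.30 and 5.53, while neuronal and glial means are nearly level across the acupoint and MPTP arrays.

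Set against the mean of the MPTP arrays, 332 genes were at least 1.5-fold away on acupoint replicate 1 and 56 on acupoint replicate 2. In 5 genes both acupoint arrays were at least 1.5-fold away in the same direction, namely Sprr1a at higher signal and Alas2, Dppa5a, Hoxc5 and Ppbp at lower signal. In 23 genes they were at least 1.5-fold away in opposite directions. Over all genes the 2 arrays lay on the same side of the MPTP mean in 43.2%.

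**Figure D2:**
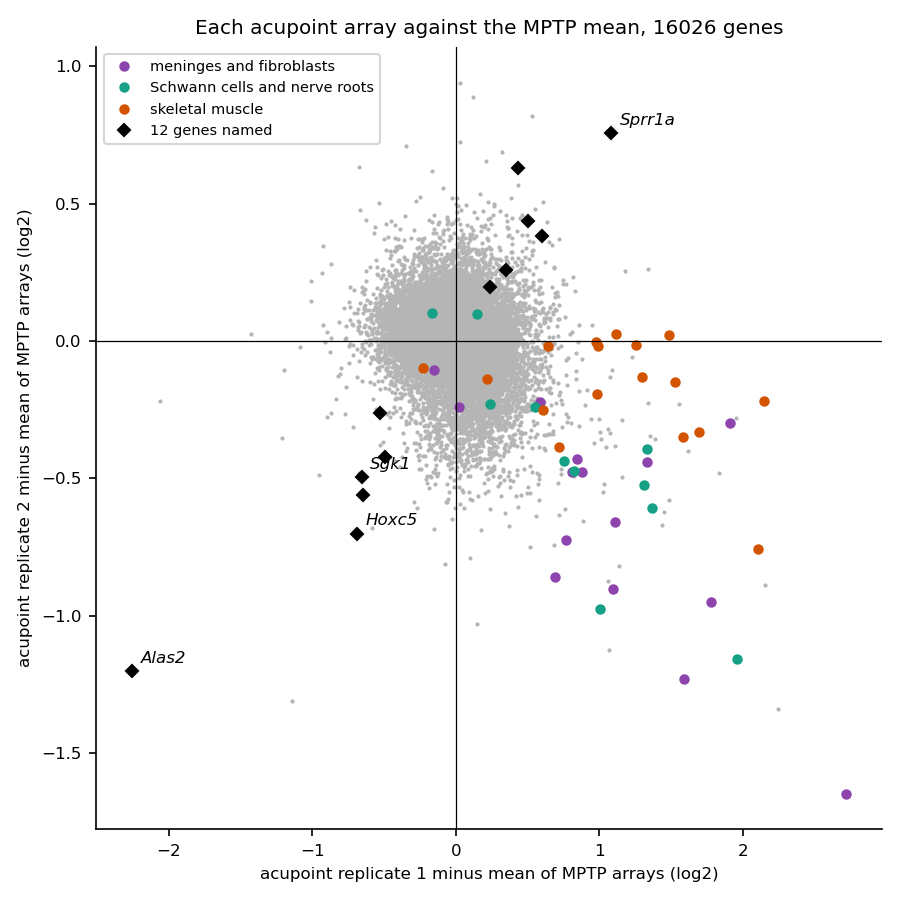
Log2 difference of acupoint replicate 1 (x axis) and acupoint replicate 2 (y axis) from the mean of the MPTP arrays for 16026 genes, with markers of meninges, nerve roots and muscle coloured and the 12 genes named below in black. The coloured markers spread along the x axis and lie mostly at or below 0 on the y axis, whereas Sprr1a and Alas2 are away from 0 on both axes.

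The 6 genes at higher signal after acupoint needling with an unadjusted p under 0.01 were Sprr1a, Gal3st2c, Tmem150a, Itga4, Jun and Srrm2, and the 6 at lower signal were Alas2, Hoxc5, Ube2l6, Sgk1, Ctla2a and Bcl6. None of the 12 passed the adjusted threshold (limma, adjusted p of 1 for each). In all 12 the acupoint and MPTP arrays did not overlap, which was a condition for naming them and held for 24.3% of all genes. If the arrays fell in random order, a share of 0.333 of genes would meet this condition. The promoters of Sprr1a, Jun and Alas2 are shown because these genes are a nerve injury marker, a subunit of the transcription factor AP-1 and a marker of red cell precursors. Each window runs from 250 bases before to 50 bases after the start of the gene, 5′ to 3′ along its strand, from RefSeq on mouse build GRCm38.p6: Sprr1a at chr3:92485832-92486131 (minus strand), Jun at chr4:95052173-95052472 (minus strand) and Alas2 at chrX:150547167-150547466 (plus strand). Capitals mark every match, on either strand, to the AP-1 motif TGANTCA, to TGACATCA, the AP-1-like motif known from the Jun promoter, and to AGATAA, the motif of GATA factors, and no matches overlap.
Sprr1a: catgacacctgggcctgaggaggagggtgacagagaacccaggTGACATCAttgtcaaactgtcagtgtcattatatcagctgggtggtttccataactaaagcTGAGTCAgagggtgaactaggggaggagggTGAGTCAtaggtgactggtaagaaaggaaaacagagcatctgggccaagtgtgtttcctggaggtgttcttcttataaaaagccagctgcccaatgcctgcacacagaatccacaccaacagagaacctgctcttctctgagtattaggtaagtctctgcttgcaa
Jun: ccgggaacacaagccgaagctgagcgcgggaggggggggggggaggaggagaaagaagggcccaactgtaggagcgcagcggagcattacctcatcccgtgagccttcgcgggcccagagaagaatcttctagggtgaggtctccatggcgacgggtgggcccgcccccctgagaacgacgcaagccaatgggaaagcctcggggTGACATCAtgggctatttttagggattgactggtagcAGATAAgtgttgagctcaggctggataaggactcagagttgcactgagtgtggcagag
Alas2: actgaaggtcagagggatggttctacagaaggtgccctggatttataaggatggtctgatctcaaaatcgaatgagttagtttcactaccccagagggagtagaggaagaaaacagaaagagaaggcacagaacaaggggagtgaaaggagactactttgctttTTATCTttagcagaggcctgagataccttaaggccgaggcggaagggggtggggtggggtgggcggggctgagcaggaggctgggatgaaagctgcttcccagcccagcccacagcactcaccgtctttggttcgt
The Sprr1a window held TGANTCA at -146 to -140 and at -116 to -110 from the start of the gene, and TGACATCA at -207 to -200. The Jun window held TGACATCA at -45 to -38 and AGATAA at -8 to -3, and the Alas2 window held AGATAA on the reverse strand, printed as TTATCT, at -86 to -81. Of 32851 promoter windows of the same length, 7.81% held TGANTCA, 3.62% held TGACATCA and 11.2% held AGATAA. These matches describe the sequence and say nothing of which factor was bound.

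Sprr1a, a small proline-rich protein of epithelia and of injured neurons, had a log2 signal of 6.52 and 6.19 on acupoint replicates 1 and 2, against 5.65 and 5.22 on MPTP replicates 1 and 2. Both acupoint arrays were above both MPTP arrays, and the log2 difference was 0.92 (SE 0.18, 95% interval 0.52 to 1.33), which is 1.89-fold, with an unadjusted p of 0.000568 in limma. Sprr1a was also at 6.67 and 6.46 after needling at the hips, so all 4 needled arrays were above the 2 MPTP arrays and the 2 control arrays (5.16 and 4.97). Acupoint minus non-acupoint needling was -0.21 (95% interval -0.62 to 0.20).

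Jun, a subunit of AP-1, was at 8.40 and 8.31 with acupoint needling, against 8.01 and 8.09 with MPTP alone. The arrays did not overlap, with a log2 difference of 0.30 (SE 0.09, unadjusted p of 0.007 in limma), and the hip-needled arrays lay between them at 8.23 and 8.16. Itga4, the alpha-4 integrin subunit through which leukocytes bind VCAM1 and fibronectin, was at 6.21 and 6.14 with acupoint needling, against 5.61 and 5.80 with MPTP alone. Its log2 difference was 0.47 (SE 0.12, unadjusted p of 0.00337 in limma), and the hip-needled arrays again lay between, at 5.92 and 5.89.

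Tmem150a, a membrane protein that acts with the lipid kinase making phosphatidylinositol 4-phosphate at the cell surface, was at 6.57 and 6.35 with acupoint needling, against 5.98 and 5.96 with MPTP alone. It had a log2 difference of 0.49 (SE 0.13, unadjusted p of 0.00426 in limma), and the control arrays, at 6.93 and 6.67, were above both groups. Srrm2, a scaffold protein of nuclear speckles and splicing, was at 10.02 and 9.97 with acupoint needling, against 9.79 and 9.77 with MPTP alone, with a log2 difference of 0.22 (SE 0.07). Control arrays were again the highest, at 10.15 and 10.18, and MPTP minus control was -0.83 for Tmem150a (limma, adjusted p of 0.00555) and -0.39 for Srrm2 (limma, adjusted p of 0.00685). Neither call held with the muscle marker mean as a covariate, and the cause was not tested. No gene was called in MPTP minus control in that fit (limma, smallest adjusted p of 0.0508). Those comparisons use the same MPTP arrays as the acupoint comparison. Gal3st2c, a sulfotransferase of the family that sulfates galactose, was at 5.46 and 5.66 with acupoint needling, against 4.96 and 5.10 with MPTP alone, a difference of 0.53 (SE 0.15).

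**Figure D3:**
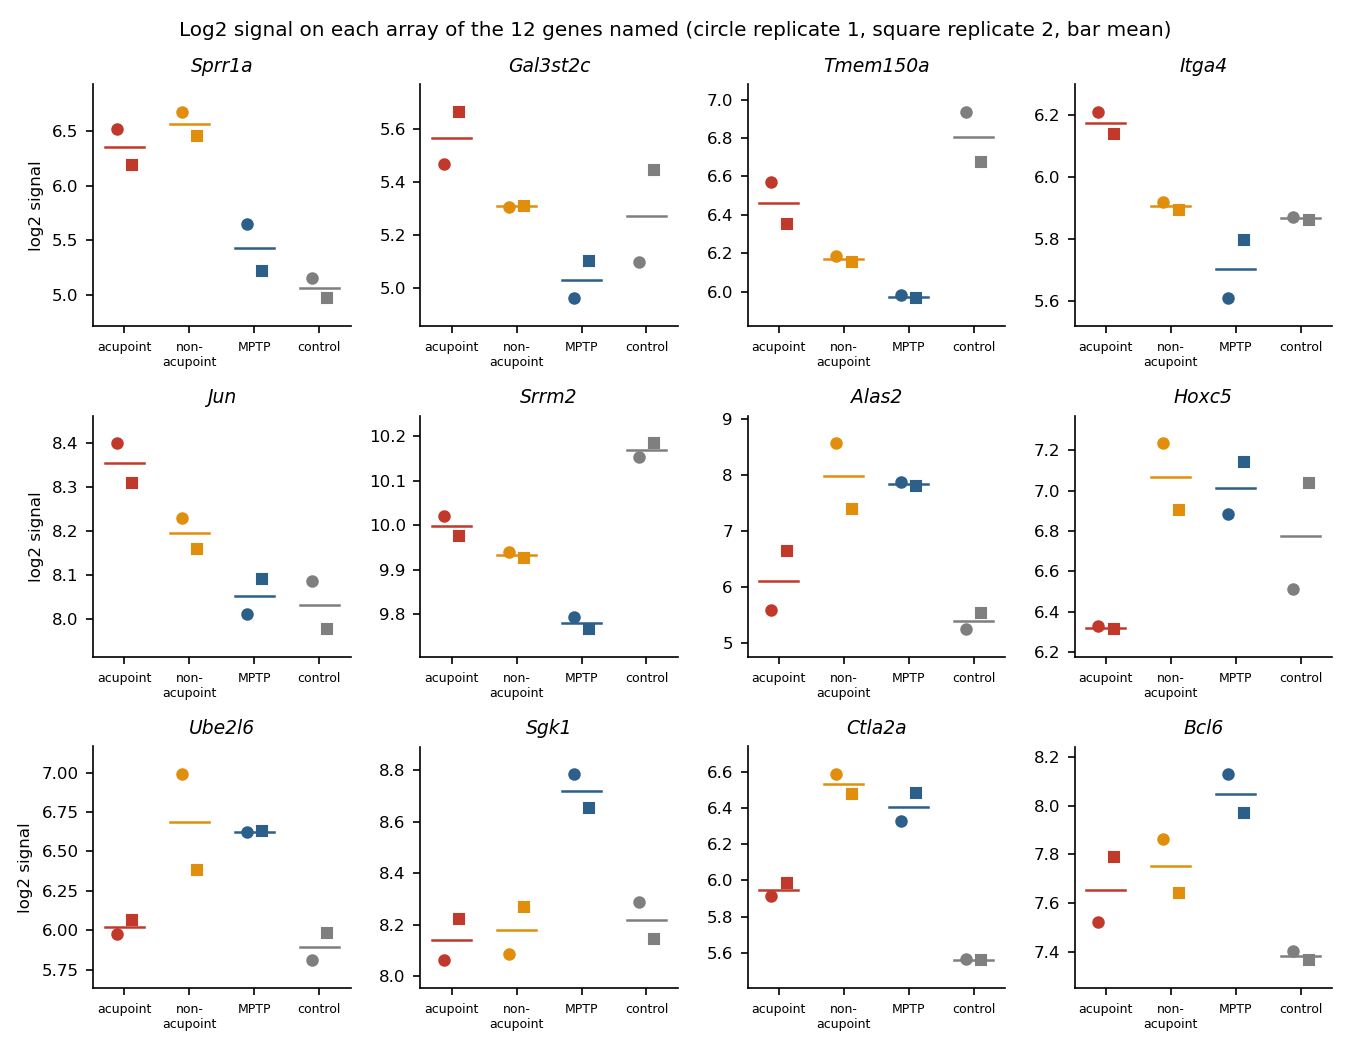
Log2 signal of the 12 named genes on each of the 8 arrays, with groups in the order acupoint, non-acupoint, MPTP and control, circles for replicate 1, squares for replicate 2 and a bar at each group mean. In every panel both acupoint arrays are on 1 side of both MPTP arrays, and in Sprr1a and Sgk1 the 2 hip-needled arrays are beside the acupoint arrays.

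Alas2, the enzyme that starts haem synthesis in red cell precursors, had the largest difference of the 12. It was at 5.59 and 6.64 with acupoint needling, against 7.87 and 7.81 with MPTP alone. The arrays did not overlap, and the log2 difference was -1.73 (SE 0.38, 95% interval -2.59 to -0.87), 3.32-fold lower, with an unadjusted p of 0.00133 in limma. The hip-needled arrays were at 8.57 and 7.40, giving an acupoint minus non-acupoint difference of -1.87 (unadjusted p of 0.000773 in limma), which did not pass adjustment. Control arrays were at 5.24 and 5.54, and MPTP minus control was 2.45 (limma, adjusted p of 0.00543). This call was lost with the muscle covariate, and the cause was not tested.

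Other transcripts of blood were mixed. Ppbp, a chemokine stored in platelets, was at 5.08 and 4.91 with acupoint needling, against 6.22 on both MPTP arrays. That is a log2 difference of -1.23 (SE 0.49, unadjusted p of 0.0327 in limma), while the hip-needled arrays were far apart at 7.46 and 5.48. Itga2b, the platelet integrin subunit, was at 5.94 and 5.51, against 5.43 and 5.44, a difference of 0.29 in the other direction. Of 11 erythroid, platelet and blood genes tested out of 19 listed, 6 were positive and 5 negative, with a median of 0.004. The mean of these genes was 6.56 and 6.48 with acupoint needling, against 6.65 and 6.77 with MPTP alone.

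Sgk1, a kinase induced by glucocorticoids and by osmotic and synaptic stimuli, had the smallest p of all 16026 genes. It was at 8.06 and 8.22 with acupoint needling, against 8.78 and 8.65 with MPTP alone, a log2 difference of -0.58 (SE 0.10, 95% interval -0.81 to -0.34, unadjusted p of 0.000327 in limma). The hip-needled arrays were at 8.09 and 8.27 and the control arrays at 8.29 and 8.15, so the MPTP arrays were above all 6 others. Acupoint minus non-acupoint needling was -0.04 (unadjusted p of 0.733 in limma), and MPTP minus control was 0.50 (limma, adjusted p of 0.0136). The latter call was also lost with the muscle covariate, and the cause was not tested.

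Bcl6, a transcriptional repressor of lymphocyte and neuronal differentiation, was at 7.52 and 7.79 with acupoint needling and 7.86 and 7.64 with hip needling, against 8.13 and 7.97 with MPTP alone. Its log2 difference from MPTP was -0.40 (SE 0.12, unadjusted p of 0.0096 in limma), and the controls were lower than all of these, at 7.40 and 7.36. Ube2l6, the enzyme that conjugates the ubiquitin-like protein ISG15, was at 5.98 and 6.07 with acupoint needling, against 6.62 and 6.63 with MPTP alone, with a log2 difference of -0.60 (SE 0.18). Ctla2a, an inhibitor of cysteine proteases, was at 5.91 and 5.98 with acupoint needling, against 6.33 and 6.48 with MPTP alone, with a log2 difference of -0.46 (SE 0.12). For Ctla2a and Ube2l6, as for Alas2, both hip-needled arrays were above both acupoint arrays, at 6.59 and 6.48 for Ctla2a and at 6.99 and 6.38 for Ube2l6. Acupoint minus non-acupoint needling was -0.58 for Ctla2a (unadjusted p of 0.000717 in limma), which did not pass adjustment.

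Hoxc5 belongs to the Hox genes, homeodomain transcription factors whose order along each chromosomal cluster follows the order of their expression along the body axis. It was at 6.33 and 6.31 with acupoint needling, against 6.89 and 7.14 with MPTP alone, a log2 difference of -0.69 (SE 0.18, unadjusted p of 0.00391 in limma). Because Hoxc5 was among the named genes, the other Hox genes were listed after their values had been seen. Hoxc4, with a log2 difference of -0.39, Hoxc6, at -0.28, and Hoxc8, at -0.44, also had both acupoint arrays below both MPTP arrays. Hoxc9 was at 7.50 and 7.76 with acupoint needling, against 7.46 and 7.33 with MPTP alone, and Hoxc10 at 7.61 and 7.83, against 7.34 and 7.48. Of the 9 Hoxc genes tested 3 were positive and 6 negative, and the 4 measured members between Hoxc4 and Hoxc8 were all among the negative ones. Over all 37 Hox genes tested, 17 were positive and 20 negative, and 0 passed adjustment (limma). Both acupoint arrays were below both MPTP arrays in 9 of the 37 and above in 6, against 11.9% and 12.3% of all genes. The 9 were 4 of 10 Hoxa genes, 1 of 9 Hoxb genes, 4 of 9 Hoxc genes and 0 of 9 Hoxd genes. The exact level of the cord that was taken from each mouse is not given, and its part in these values was not tested.

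Beyond the 12 genes, 38 lists of genes (24 of pathways and 14 of cell types) were described by their counts. No member of any list passed the adjusted threshold. Each list is read against all genes tested, of which 46.5% were positive and 53.5% negative, 12.3% had both acupoint arrays above both MPTP arrays and 11.9% had both below. A list's members are not independent of each other, so these counts carry no test.

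**Figure D4:**
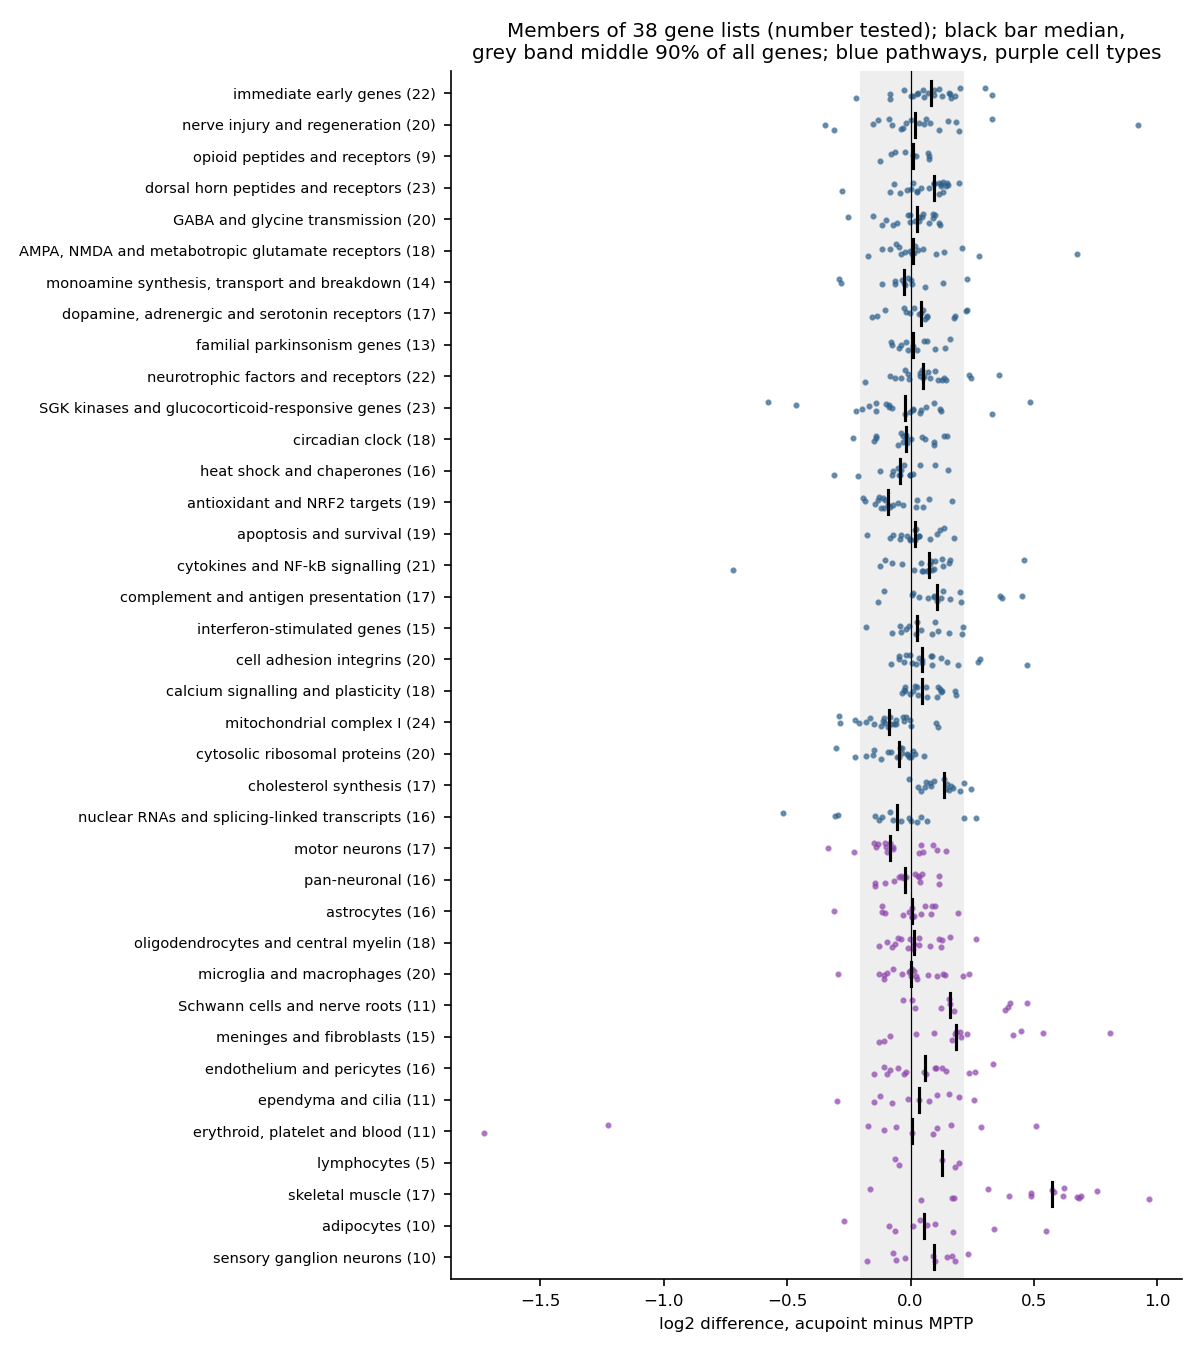
Log2 difference, acupoint minus MPTP, of every tested member of 38 gene lists, with the number tested in parentheses, a black bar at the median and a grey band over the middle 90% of all genes. Cholesterol synthesis has a median of 0.13, complex I of -0.09 and skeletal muscle of 0.57, and most members of most lists lie inside the grey band.

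Cholesterol synthesis was the pathway list with the highest share of members in which both acupoint arrays lay on the same side of both MPTP arrays. Of 17 genes tested, 16 had a positive difference, with a median of 0.13 on the log2 scale. In 12 of the 17 both acupoint arrays were above both MPTP arrays, against 12.3% of all genes, and in 0 were both below. Mvd, which makes isopentenyl diphosphate, was at 8.20 and 8.35 with acupoint needling, against 8.12 and 7.94 with MPTP alone, a difference of 0.24 (SE 0.11). Hsd17b7, a reductase of the late pathway, was at 8.99 and 9.01, against 8.88 and 8.80, a difference of 0.16 (SE 0.08). Srebf2, the transcription factor that drives the pathway, was at 9.53 and 9.22, against 9.19 and 9.12, and Sqle, the squalene epoxidase, was at 9.58 and 9.49, against 9.40 and 9.38. The differences are small, 1.18-fold for Mvd, and no member had an unadjusted p under 0.05. Without acupoint replicate 1 all 17 were positive with a median of 0.14, and without acupoint replicate 2 there were 13 positive with a median of 0.07. With the meninges and nerve root marker mean as a covariate 17 were positive with a median of 0.13, against 46.6% of all genes positive in that fit. After needling at the hips, compared with the same MPTP arrays, 14 of the 17 were positive with a median of 0.10, against 47.4% of all genes positive in that comparison.

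Subunits of mitochondrial complex I, the enzyme that the MPTP metabolite inhibits, leaned the other way, mainly on 1 array. Of 24 tested, 3 were positive and 21 negative, with a median of -0.09, and both acupoint arrays were below both MPTP arrays in 7 and above in 1. Ndufa5 was at 8.66 and 9.04 with acupoint needling, against 9.11 and 9.17 with MPTP alone (-0.28, SE 0.12). Ndufs8 was at 9.53 and 9.73, against 9.92 and 9.77, and Ndufa12 at 9.44 and 9.51, against 9.70 and 9.61. Acupoint replicate 1 was the lower of the acupoint arrays in these 3 subunits. Without acupoint replicate 1 the list had 13 positive members and a median of 0.01, and without acupoint replicate 2 it had 3 positive members and a median of -0.18. With the meninges and nerve root marker mean as a covariate it had 6 positive and 18 negative members and a median of -0.07.

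**Figure D5:**
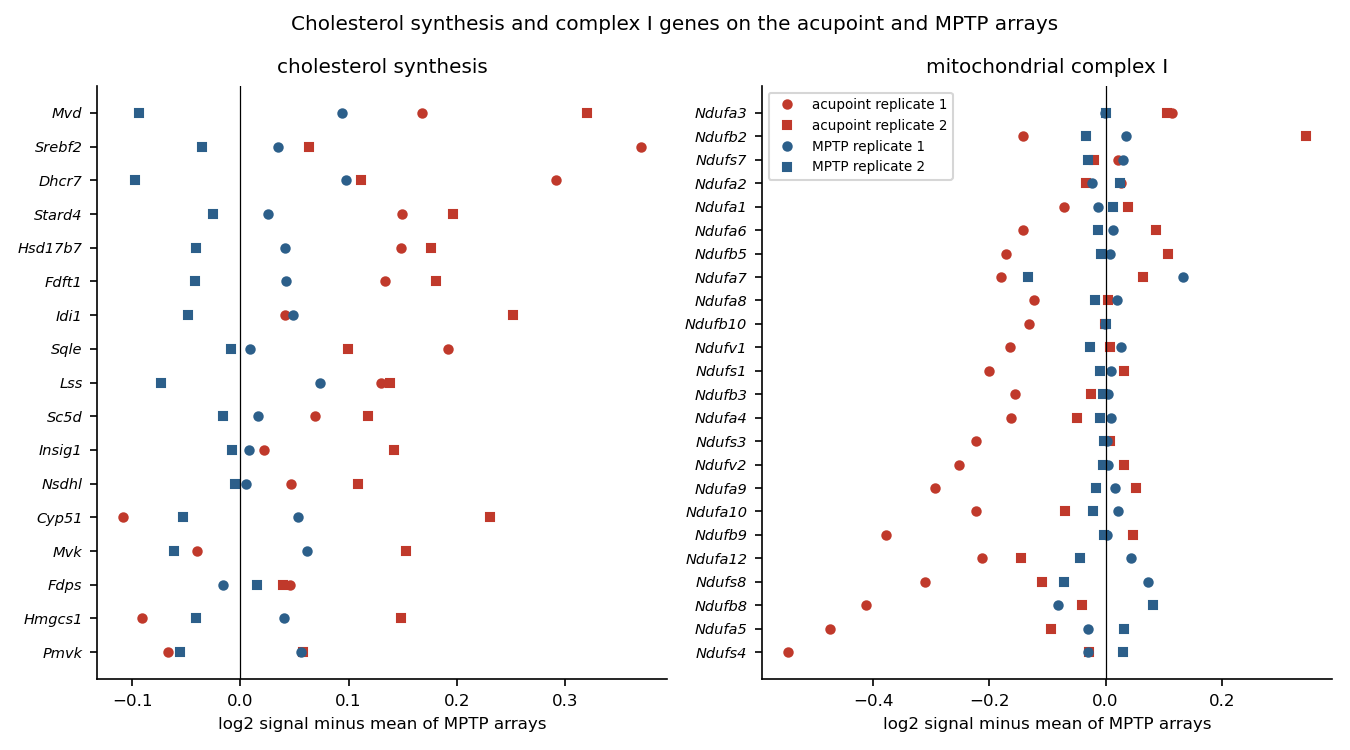
Log2 signal minus the mean of the MPTP arrays (x axis) for the 17 cholesterol synthesis genes and 24 complex I genes tested, with acupoint arrays in red, MPTP arrays in blue, circles for replicate 1 and squares for replicate 2. Both red points are right of both blue points in 12 sterol genes, while in most complex I genes the red circle (acupoint replicate 1) is at the far left, as in Ndufa5 with a log2 signal of 8.66 on that array and 9.04 on acupoint replicate 2.

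Cytosolic ribosomal proteins had 4 positive and 16 negative members of 20, with a median of -0.04. Both acupoint arrays were below both MPTP arrays in 6 and above in 1. The median was -0.02 without acupoint replicate 1 and -0.09 without acupoint replicate 2. Rpl4 was at 11.32 and 11.59 with acupoint needling, against 11.61 and 11.75 with MPTP alone, and Rpl19 at 11.01 and 11.27, against 11.36 and 11.28. Among 19 antioxidant genes and targets of NRF2, 14 were negative with a median of -0.09, and without acupoint replicate 1 there were 11 positive. Gstm1, a glutathione transferase, was at 10.09 and 10.37 with acupoint needling, against 10.43 and 10.40 with MPTP alone. Txn1, thioredoxin, was at 11.18 and 11.33, against 11.35 and 11.36. Of 16 heat shock genes and chaperones 12 were negative, with a median of -0.04, and without acupoint replicate 1 there were 12 positive. Hspe1, a mitochondrial chaperone, was at 9.64 and 10.15, against 10.10 and 10.12. Hspb1, a small heat shock protein of stressed and injured neurons, was low on both acupoint arrays. It was at 8.31 and 8.33 with acupoint needling, against 8.63 on both MPTP arrays, a difference of -0.31 (SE 0.12, unadjusted p of 0.0254 in limma).

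Immediate early genes, the readout of recent neuronal activity, had 18 positive members of 22 with a median of 0.08. Both acupoint arrays were above both MPTP arrays in 5 and below in 2. Besides Jun, Atf3 was at 5.93 and 5.64 with acupoint needling, against 5.56 and 5.35 with MPTP alone, and Fosb at 5.77 and 5.56, against 5.44 and 5.49. Dusp1, the phosphatase that switches off MAP kinases, was at 7.65 and 7.47, against 7.70 and 7.86. This lean was seen on acupoint replicate 1. Without it 11 of 22 were positive with a median of -0.001, and without acupoint replicate 2 there were 16 positive with a median of 0.17. Jun and Atf3 were positive either way. With the meninges and nerve root marker mean as a covariate 14 of 22 members were positive with a median of 0.06.

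In the list of nerve injury and regeneration genes, 11 of 20 were positive with a median of 0.02. Both acupoint arrays were above both MPTP arrays in 8 and below in 2. Sprr1a was the member furthest from 0 and Hspb1 had the next smallest p, in the other direction. Npy, a peptide of dorsal horn interneurons that sensory neurons make after nerve injury, was at 8.49 and 8.40 with acupoint needling, against 8.33 and 8.17 with MPTP alone. Its log2 difference was 0.20 (SE 0.10), and after hip needling Npy was at 8.13 and 7.96, below the acupoint arrays.

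Peptides and receptors of the dorsal horn, where touch and pain input is relayed, had 18 positive members of 23 with a median of 0.09. Both acupoint arrays were above both MPTP arrays in 5 members and below in 0. Sst, somatostatin of excitatory dorsal horn neurons, was at 9.90 and 9.94 with acupoint needling and 9.66 and 9.39 with hip needling, against 9.84 and 9.71 with MPTP alone. Calcb, a calcitonin gene-related peptide, was at 6.42 and 6.93, against 7.06 and 6.84. Here the 2 acupoint arrays parted, with 19 positive members and a median of 0.15 without acupoint replicate 1, and 9 positive and a median of -0.09 without acupoint replicate 2. Of 9 opioid peptides and receptors 5 were positive with a median of 0.01. Penk, the enkephalin precursor, was at 11.32 and 11.34 with acupoint needling, against 11.28 and 11.24 with MPTP alone, and Oprk1, the kappa receptor, at 6.37 and 6.79, against 6.75 and 6.65.

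Transmitter systems differed little. Genes of GABA and glycine transmission had 11 positive members of 20 with a median of 0.02, among them Gphn, the anchor of inhibitory receptors, at 9.42 and 9.49 with acupoint needling, against 9.55 and 9.57 with MPTP alone. Gabra2, a GABA-A receptor subunit, was at 8.10 and 8.40, against 8.61 and 8.40. The list of glutamate receptors and transporters had 10 positive members of 18 with a median of 0.01. Its member Slc17a7, the vesicular transporter of a subset of glutamatergic and sensory endings, was at 5.75 and 6.04 with acupoint needling, against 5.22 and 5.23 with MPTP alone. That is a difference of 0.67 (SE 0.29, unadjusted p of 0.0445 in limma), with the control arrays at 6.58 and 5.57. Gria3, an AMPA receptor subunit, was at 9.67 and 9.96, against 10.01 and 9.96.

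In monoamine synthesis, transport and breakdown, 9 of 14 genes were negative with a median of -0.03, while without acupoint replicate 2 there were 7 positive. Th, the enzyme that begins dopamine synthesis, was at 6.42 on both acupoint arrays, against 6.35 and 6.54 with MPTP alone. Ddc, which makes dopamine and serotonin from their amino acid precursors, was at 7.34 and 7.39 with acupoint needling, against 7.57 and 7.74 with MPTP alone, a difference of -0.29 (SE 0.14). Pts, an enzyme of tetrahydrobiopterin synthesis, was at 7.33 and 7.75, against 7.82 and 7.83. Among 17 receptors for dopamine, noradrenaline and serotonin, 11 were positive with a median of 0.04. Htr2c, the serotonin receptor known in motor neurons, was at 10.17 and 9.94 with acupoint needling, against 9.83 and 9.84 with MPTP alone, a difference of 0.23 (SE 0.09, unadjusted p of 0.0321 in limma). Htr1d was at 5.75 and 5.72, against 5.56 and 5.47.

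Neurotrophic factors and their receptors had 15 positive members of 22 with a median of 0.05, but 9 positive without acupoint replicate 1 and 18 without acupoint replicate 2. Gfra2, the receptor of neurturin, was at 7.35 and 7.51 with acupoint needling and 7.17 and 7.05 with hip needling, against 7.18 and 7.21 with MPTP alone, a difference from MPTP of 0.24 (SE 0.10). Bcl2, the inhibitor of apoptosis, was at 7.44 and 7.48, against 7.31 and 7.25, and Mdm2, the ligase that degrades p53, at 7.84 and 8.04, against 8.11 and 8.12. The apoptosis and survival list as a whole had 11 positive members of 19. Of 13 genes known from familial parkinsonism 7 were positive with a median of 0.01, including Fbxo7 at 8.72 and 8.74 with acupoint needling, against 8.58 and 8.56 with MPTP alone, and Synj1 at 10.35 and 10.08, against 10.09 and 10.06.

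SGK kinases and glucocorticoid-responsive genes, the list that holds Sgk1, had 10 positive and 13 negative members with a median of -0.02. Sgk3, a relative of Sgk1, was at 7.37 and 8.06 with acupoint needling and 9.05 and 9.24 with hip needling, against 8.14 and 8.21 with MPTP alone. Zbtb16, a zinc finger repressor induced by glucocorticoids, was at 7.36 and 8.27 with acupoint needling, against 7.35 and 7.32 with MPTP alone. It was at 8.27 on both hip-needled arrays and at 7.43 and 7.35 on the control arrays, so acupoint replicate 2 was with the hip-needled arrays and acupoint replicate 1 with the arrays of mice that were not needled. Hif3a, a glucocorticoid-inducible member of the hypoxia factor family, was at 5.13 and 5.09 with acupoint needling, against 4.72 and 4.84 with MPTP alone, a difference of 0.33 (SE 0.14, unadjusted p of 0.0445 in limma). Clock genes had 7 positive members of 18 with a median of -0.02. Cry1, a repressor of the clock, was at 7.07 and 7.02 with acupoint needling, against 7.26 and 7.30 with MPTP alone, and Nr1d1, the REV-ERB alpha receptor, was at 9.22 and 9.21, against 9.05 and 9.11.

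Cytokine and NF-kB genes had 16 positive members of 21 with a median of 0.08, which was 0.01 without acupoint replicate 1 and 0.15 without acupoint replicate 2. Their 2 members with the smallest p lay in opposite directions. Ccl3, a chemokine of activated microglia, was at 4.86 and 5.32 with acupoint needling and 5.68 and 6.38 with hip needling, against 5.69 and 5.93 with MPTP alone. Its difference from MPTP was -0.72 (SE 0.23, unadjusted p of 0.0126 in limma). Tnf was at 5.45 on both acupoint arrays and at 5.03 and 4.99 with hip needling, against 5.07 and 4.91 with MPTP alone, a difference from MPTP of 0.46 (SE 0.18, unadjusted p of 0.029 in limma). Complement and antigen presentation had 15 positive members of 17 with a median of 0.11, but without acupoint replicate 1 there were 5 positive with a median of -0.09. Psmb8 and Psmb9, subunits of the immunoproteasome, were at 5.40 and 5.32, against 5.09 and 5.23, and at 6.95 and 6.68, against 6.47 and 6.75. Interferon-stimulated genes had 9 positive members of 15, with Ifit1 at 6.01 and 5.62 with acupoint needling, against 5.51 and 5.70 with MPTP alone, and Oas1a at 5.08 and 5.0, against 5.02 and 5.42.

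The integrin list, which holds Itga4, had 14 positive members of 20 with a median of 0.05, but 9 positive without acupoint replicate 1 and 16 without acupoint replicate 2. Its member Itga8 was at 5.29 and 5.08 with acupoint needling, against 5.06 and 4.77 with MPTP alone. Calcium signalling and plasticity genes had 13 positive members of 18 with a median of 0.05 (8 positive without acupoint replicate 2). Among the 13 was the channel Cacna1b at 7.85 and 7.68, against 7.65 and 7.52, and the kinase Prkca at 7.81 and 7.67, against 7.59 and 7.52. In the list of nuclear RNAs and splicing-linked transcripts 11 of 16 were negative with a median of -0.05, but without acupoint replicate 1 there were 9 positive with a median of 0.01. Clk1 and Clk4 are kinases of splicing factors whose own transcripts are partly held in the nucleus. Clk1 was at 8.33 and 8.84 with acupoint needling, against 9.13 and 9.09 with MPTP alone, a difference of -0.52 (SE 0.16, unadjusted p of 0.0106 in limma), and of -0.26 without acupoint replicate 1. Clk4 was at 8.29 and 8.55, against 8.76 and 8.66. Srrm2 and Malat1, a nuclear long noncoding RNA, were in the other direction, Malat1 at 10.65 and 10.49, against 10.11 and 10.49.

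Lists of the cells of the cord were centred near 0, with medians of -0.02 for 16 neuronal markers, 0.01 for 16 astrocyte markers, 0.01 for 18 oligodendrocyte markers and 0.002 for 20 microglia markers. Snap25, a synaptic vesicle fusion protein, was at 12.25 and 12.45 with acupoint needling, against 12.50 and 12.49 with MPTP alone, and Syt1, a vesicle calcium sensor, at 10.52 and 10.44, against 10.36 and 10.37. Motor neuron markers had 11 negative members of 17 with a median of -0.08, including the neurofilament Nefl at 12.18 and 12.38, against 12.45 and 12.38, and Uts2b at 6.02 and 6.35, against 6.59 and 6.45. Slc4a4, a bicarbonate transporter of astrocytes, was at 10.69 and 10.36, against 10.34 and 10.32, while Etnppl, another astrocyte marker, was at 8.77 and 9.37, against 9.29 and 9.47. The myelin genes Cldn11 and Mog were at 10.74 and 10.70, against 10.61 and 10.51, and at 10.93 and 11.08, against 11.14 and 11.13. The microglial genes Tmem119 and Gpr34 were at 6.72 and 6.89, against 6.67 and 6.52, and at 4.55 and 4.93, against 5.04 and 5.02. In the neuronal, astrocyte, myelin and microglial pairs 1 gene had both acupoint arrays above the MPTP arrays, and its partner had at least 1 acupoint array below both MPTP arrays.

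By contrast, 16 of 17 muscle markers and 12 of 15 meninges markers were positive, with medians of 0.57 and 0.18, yet in 0 of either list were both acupoint arrays above both MPTP arrays. Without acupoint replicate 1 the medians were -0.14 for muscle and -0.48 for meninges. The Schwann cell and nerve root list had 10 positive members of 11 with a median of 0.16, and -0.44 without acupoint replicate 1. Of the 29 genes at least 1.5-fold apart between the groups, 7 were in the muscle list and 1 in the meninges list. The Schwann cell and nerve root list held 0 of them. Others of the 29 outside the lists, Cldn19, Fam178b and Sbspon among them, also had only acupoint replicate 1 above both MPTP arrays. The arrays of the groups did not overlap in 12 of the 29, against 24.3% of all genes, but the 29 were picked by the size of their difference. Endothelium and pericytes had 9 positive markers of 16 with a median of 0.06, but 3 positive with a median of -0.18 without acupoint replicate 1 and 14 without acupoint replicate 2. Flt1, a VEGF receptor, was at 8.38 and 7.96 with acupoint needling, against 8.00 and 7.82 with MPTP alone, and Abcb1a, the drug efflux pump of the blood-brain barrier, was at 9.00 and 8.73, against 8.94 and 9.09. The ependyma list had 6 positive members of 11, adipocytes 7 of 10, sensory ganglion neurons 6 of 10, and lymphocytes 3 of the 5 that passed the filter out of 14 listed.

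Whether a difference went with the acupoints or with needling as such was asked by setting the acupoint arrays against the hip-needled arrays. No gene passed (limma, smallest adjusted p of 0.411), with 604 genes at an unadjusted p under 0.05 (3.77%) and 89 under 0.01 (0.555%). Sgk3 had the smallest p, with 7.37 and 8.06 with acupoint needling, against 9.05 and 9.24 on the hip-needled arrays, a difference of -1.43. Cidea, a lipid droplet protein of fat cells, was at 6.11 and 6.52, against 6.78 and 8.18, and non-acupoint replicate 2 also stood apart in its mean of 10 adipocyte markers, 8.01, against 5.85 to 6.20 on the other 7 arrays. Tecrl was at 4.12 and 4.05 on the acupoint arrays, below the filter level, against 5.0 and 5.10 on the hip-needled arrays. On the positive side, Hoxc10 was at 7.61 and 7.83, against 5.18 and 7.06, and Hoxd9 at 6.24 and 6.58, against 5.64 and 5.84. Non-acupoint replicate 1 was low in other posterior Hox genes too, listed after their values were seen, with Hoxd10 at 4.58 on that array and 8.35 on non-acupoint replicate 2, and Hoxd11 at 5.31 and 6.59. Usp17ld, a deubiquitinating enzyme of a multigene family whose copies share sequence, was at 7.46 and 6.38, against 5.77 and 5.70. Set, a histone chaperone, was at 4.76 and 4.70, against 4.16 and 4.13 on the hip-needled arrays, both below the filter level.

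With 2 arrays against 2 the smallest exact permutation p for a single gene is 0.333, so every p given here rests on limma's pooled estimate of the spread. Leaving out each of the 8 arrays in turn changed the count of called genes in acupoint minus MPTP in 1 case only: without acupoint replicate 2, when acupoint replicate 1 stood alone for its group, 3 genes passed (Lrp1, Bmpr2 and Usp17ld, all higher) and 3028 had an unadjusted p under 0.05, against 0 and 425 without acupoint replicate 1.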

How the data were processed

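RNA of the cervical spinal cord (300 ng per sample, fragmented and biotin-labelled as cDNA by the Affymetrix whole-transcript assay, per the labels' protocols) was measured on 8 arrays, 2 for each of 4 groups. The values deposited by the authors are on the log2 scale, for 35557 probe sets on each array. They were made with RMA in Affymetrix Expression Console, per the submitters' processing notes, whose versions are not given in the sources used here. It subtracts background, quantile-normalizes probe signals and summarises each probe set, which compresses the fold changes of dim genes. The deposited arrays still differ in distribution. The median of probe sets without a gene was 4.75 on both control arrays, against 4.25 to 4.39 on the others, with acupoint replicate 1 at 4.39. The standard deviation over all probe sets was 2.35 on both control arrays, against 2.43 to 2.50 on the others. The part of this in the differences was not tested beyond the alternative normalizations. No scanner file or scan date was used here and no batch could be tested, and the number of arrays limits the precision.

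The platform annotation named a single gene for 21789 probe sets, several genes for 1621 and no gene for 12147, and 21698 were found in the RefSeq gene table of GRCm38.p6. Genes with a mean over the 8 arrays above 4.30, the 30th percentile over all probe sets, were tested, with the brightest probe set for the 865 genes with more than 1. Group means of all 8 arrays were fitted with limma 3.58.1 in R 4.3.3 (eBayes with an intensity trend, 4 residual and 5.34 prior degrees of freedom), and two-sided p-values were adjusted by Benjamini-Hochberg within each comparison. The script was tested on simulated data. Plots were made in Python 3.11.15 with matplotlib 3.10.9.

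The text names genes whose arrays do not overlap between the groups and that pass an adjusted p of 0.05, filled up by those at an unadjusted p under 0.01 (at most 12 in each direction, 4 for acupoint minus non-acupoint needling), the 2 to 4 members of each list with the smallest p, and the 10 genes with the largest gap between the acupoint arrays. Predicted genes, receptor and immunoglobulin segments and small RNAs are not named. Th, Hoxc4, Hoxc6, Hoxc8, Hoxc9, Dppa5a, Hoxd10, Hoxd11, Lrp1 and Bmpr2 were named outside this rule, after their values were seen. The comparison, the lists and the rule were chosen with earlier results of these data known.

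Alternatives were quantile normalization again, cyclic loess, centring on the median, robust eBayes, eBayes without the trend, an unmoderated linear model, no filter on low values or one at the 50th percentile, the 2 groups alone, array weights, averaged probe sets, the replicate number as a block, the muscle marker mean as a covariate, and each array left out. The meninges and nerve root marker mean as a covariate and a crossed block were added after seeing the data. The labels give no pairing of samples by replicate number. The gap between replicates 1 and 2 of the acupoint group correlated over genes at -0.31 with that of the MPTP group. The correlation was -0.33 with the gap of the non-acupoint group and 0.17 with that of the control group. These values cannot tell whether samples were paired.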

Additional observations from a re-analysis of the deposited data

How the results depend on the processing

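Acupoint minus MPTP gave 0 called genes under each setting but 1, and 0 to 3 over the fits that left out an array. The counts at an unadjusted p under 0.05 were 321 without moderation and 169 with the replicate block, which gave 0 called genes, as did the crossed block with 305. The 3 genes called without acupoint replicate 2 were Lrp1 (0.86, limma adjusted p of 0.0297), Bmpr2 (0.68, 0.0447) and Usp17ld (1.34, 0.0447), and that fit takes the lone array to vary like the other groups. Acupoint minus non-acupoint needling gave 0 called genes except when an array was left out, with 0 to 622, the 622 again without acupoint replicate 2, and 12 and 3 without non-acupoint replicates 1 and 2. Non-acupoint needling minus MPTP gave 2 called genes with the 2 groups alone, 1 with array weights and 0 to 13 with an array left out. MPTP minus control, called for 2696 genes (2199 higher and 497 lower), gave 4246 with each array centred on its median (4028 higher and 218 lower), 4159 with array weights, 289 without moderation, 0 with the muscle marker mean as a covariate and 2210 with the replicate block, and 69 to 4225 with an array left out (69 without MPTP replicate 1, 194 without MPTP replicate 2, 4225 without acupoint replicate 1, 4202 without acupoint replicate 2, 681 without control replicate 2). The cause of these changes was not tested, and with the muscle covariate the median standard error of MPTP minus control was 0.22, against 0.13. The 12 named genes kept their direction in all settings in which they were tested, with Sprr1a at 0.71 to 1.14, Sgk1 at -0.66 to -0.50 and Alas2 at -2.26 to -1.20, and their smallest adjusted p was 0.0515 in limma (Alas2 and Sgk1, without acupoint replicate 2). Over 88 differences of named genes, 4 values under an alternative had the other sign and 5 passed the threshold, these being Hoxc10, Usp17ld, Alas2, Sgk3 and Cidea against hip needling with an array left out. The 4 were Oprk1 at 0.033 with the muscle covariate and -0.334 to 0.0857 with an array left out, Hspe1 at -0.470 to 0.0414 and Oas1a at -0.381 to 0.0154 with an array left out, the positive ends being without acupoint replicate 1 for Oprk1 and Hspe1 and without MPTP replicate 2 for Oas1a. The depth of an array is not defined for these values, and RMA signals near the filter have no measure of background.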
